A study of Drosophila melanogaster with 6 samples.

Results

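De novo purine synthesis was described here through 10 genes of the fly pathway, *Prps*, *Prat*, *Prat2*, *Gart*, *Pfas*, *Paics*, *AdSL*, *CG11089*, *AdSS* and *ras*, found by CG number among the 17489 genes counted in each library. They were measured in mRNAs recovered by Translating mRNA Affinity Purification (TRAP), in which ribosomes carrying a tagged Rpl3 protein are pulled out of a lysate with the mRNAs bound to them. All 6 libraries came from male *Gr5a>UAS-Rpl3-3XFLAG* flies, in which the *Gr5a* driver of sweet-taste neurons makes the tagged protein. From day 5 to day 12 flies ate food with 5% sucrose (control diet, CD + OSMI) or 30% sucrose (sugar diet, SD + OSMI). OSMI-1, which inhibits O-GlcNAc Transferase, was present at 10 µM in the food of both groups, dissolved in 10% DMSO. Replicates 1 to 3 were control-diet samples and replicates 4 to 6 sugar-diet samples, each a pool of 300 heads. No library without OSMI-1 entered the comparison, so each change below is one between diets in flies that all received the inhibitor.

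The pathway builds the purine ring step by step on a ribose phosphate and ends at inosine monophosphate (IMP), from which separate branches lead to adenosine and guanosine monophosphate (AMP and GMP). Prps makes the activated ribose phosphate that the ring is built on, and Prat and Prat2 both catalyze the committed first step. Gart, Pfas, Paics, AdSL and CG11089 carry out the middle and last steps to IMP, AdSS opens the AMP branch, and ras opens the GMP branch. The ring takes carbon from folate cofactors and from glycine, and its ribose comes from the pentose phosphate pathway. Cells also reuse purines by salvage, and flies need purines for nucleic acids, for energy carriers and, in the eye, for pteridine pigments.

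The libraries held 13324513 to 16122009 counts, and the 10 genes together took 0.0774 to 0.0962% of them. Counts were scaled to library size with TMM factors and are given as CPM, counts normalized to the size of the library, and "±" marks a standard deviation throughout. Genes needed 10 or more counts in 3 or more libraries to be tested, which 11915 genes and all 10 of the pathway reached, and the counts of the 10 ran from 117 to 3689 per library. The 9 listed sweet receptor genes, *Gr5a* among them, summed to only 2.68 to 5.75 CPM in the control-diet and 3.09 to 5.19 CPM in the sugar-diet libraries. Of these, *Gr64b*, *Gr64c*, *Gr64d* and *Gr64e* were at 0 in every library. How reads shared by neighbouring genes were counted is not given in the sources used here, and the cause of these 0 counts was not tested. The paper reports *Gr5a*, *Gr64f* and *Gr64a* as enriched in this fraction over the input, which was not analysed here. The summed level of 17 photoreceptor genes was 27459 to 37699 CPM over the 6 libraries. The libraries thus hold photoreceptor mRNA as well, and levels below are levels in the recovered fraction. Fewer cells of a type and less RNA per cell cannot be told apart in such samples. In SD + OSMI replicate 6, genes of the mitochondrial genome took 3.16% of the counts, against 1.19 to 1.54% in the other 5 libraries.

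*Gart*, *Prat2*, *CG11089* and *Prps* were lower on the sugar diet, and none of the 10 genes was higher. The test was edgeR's quasi-likelihood test at a Benjamini-Hochberg adjusted p under 0.1 over all tested genes. A negative log2 fold change is lower on the sugar diet than on the control diet. Of all tested genes 2.18% were called lower and 6.91% higher, against 4 and 0 of these 10. No member was higher at an unadjusted p under 0.05 either, a limit that 14.5% of all tested genes passed in that direction. DESeq2's Wald test and limma-voom each gave 0 higher and the same 4 lower, where they called 2.82% and 1.79% of all genes lower. At an adjusted p under 0.05, edgeR gave *Gart*, *Prat2* and *CG11089*, 3 of the 10, and 0.755% of all genes. The median log2 fold change was -0.25 over the 10 genes and -0.0027 over all tested genes.

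*Gart* encodes an enzyme with several activities of the early and middle steps, including a transfer of a formyl group from folate, and lies on chromosome 2L from 7014623 to 7023898 (BDGP6, minus strand). It was at 85.9, 110, and 89.3 CPM in CD + OSMI replicates 1, 2 and 3, and at 63.0, 60.6 and 60.2 CPM in SD + OSMI replicates 4, 5 and 6. All sugar-diet libraries were below all control libraries, and they lay much closer to one another than the control libraries did, of which replicate 2 was the highest. The mean fell by 35.6% in the fit (log2 fold change -0.63, SE 0.099, edgeR adjusted p = 0.00478), the 29th smallest p of the 11915. *Pcp*, a cuticle gene nested in an intron of *Gart* on the opposite strand, had 0 to 5 counts per library. *CG43322* shares 115 exon bases with the end of *Gart* on the opposite strand and had 38 to 88 counts per library, against 800 to 1603 for *Gart*.

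*Prat2* encodes amidophosphoribosyltransferase, the enzyme of the committed first step, on chromosome 3L from 6911999 to 6914876 (BDGP6, minus strand). It was at 86.7, 91.3 and 86.2 CPM in CD + OSMI replicates 1 to 3 and at 65.3, 61.6 and 53.6 CPM in SD + OSMI replicates 4 to 6. The control libraries lay close together, and all sugar-diet libraries were below them. *Prat2* fell by 31.7% (log2 fold change -0.55, SE 0.091, edgeR adjusted p = 0.00669), the 43rd smallest p.

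*Prat*, the paralog of *Prat2* with the same enzyme activity, lies on chromosome 3R from 7909598 to 7911779 (BDGP6, minus strand) and was the lowest of the 10 genes. Its level was 9.94, 9.81 and 10.1 CPM in CD + OSMI replicates 1 to 3 and 11.8, 10.0 and 8.81 CPM in SD + OSMI replicates 4 to 6. The diets overlapped, with the highest and the lowest values both on the sugar diet. The log2 fold change was 0.040 (SE 0.17, edgeR adjusted p = 0.926). Practical equivalence, a test whose null hypothesis is a change of more than 1.5-fold, put *Prat* within that limit (q = 0.0104, DESeq2 fit). How reads that match both paralogs were counted is not given in the sources used here.

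The ratio of the paralogs within a library does not depend on how libraries are scaled. Per kilobase of exon, *Prat2* exceeded *Prat* by a factor of 8.58, 9.16 and 8.43 in CD + OSMI replicates 1 to 3 and of 5.45, 6.04 and 5.99 in SD + OSMI replicates 4 to 6. The ratios did not overlap between diets. The mean ratio was 8.72 ± 0.382 on CD + OSMI and 5.83 ± 0.326 on SD + OSMI (n = 3 each). The log2 ratio was lower by a difference of -0.58 on the sugar diet, with single pairs of libraries differing by -0.75 to -0.48. A two-sided exact permutation test over libraries gave p = 0.1, the smallest that 3 libraries against 3 can give.

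**Figure D1:**
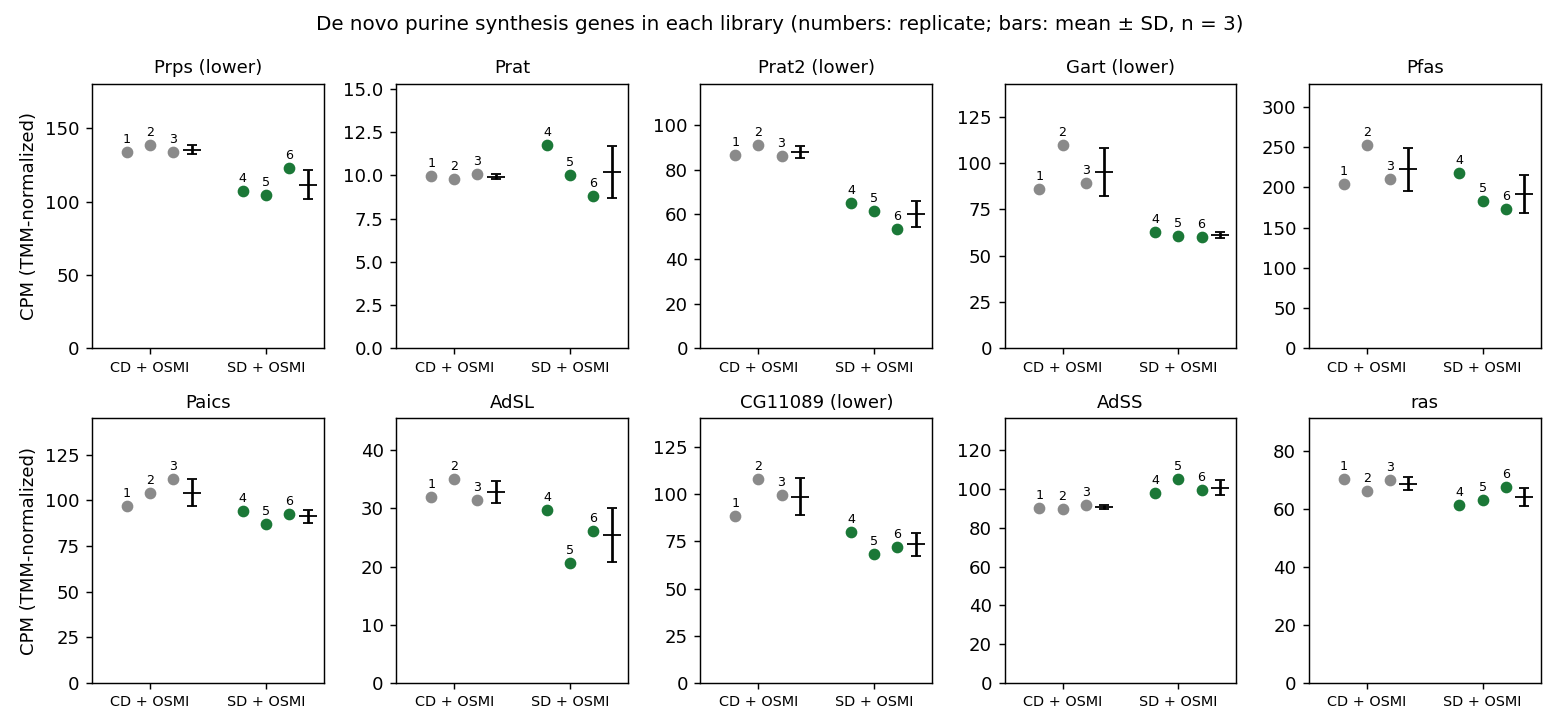
Level of each purine synthesis gene in each library, in CPM on a linear axis from 0. Points are libraries with their replicate numbers, grey for CD + OSMI and green for SD + OSMI, bars are the mean ± standard deviation of 3 libraries, and "(lower)" marks the 4 genes with an adjusted p under 0.1. The sugar-diet points of *Gart* (60.2 to 63.0 CPM) and *Prat2* (53.6 to 65.3 CPM) lie below all control points, while those of *Prat* overlap them.

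*CG11089* encodes the enzyme of the last steps to IMP, a formyl transfer from folate and the ring closure, and lies on chromosome 3R from 24877045 to 24881478 (BDGP6, plus strand). It was at 88.7, 108 and 99.9 CPM in control replicates 1 to 3 and at 80.1, 68.4 and 71.9 CPM in sugar-diet replicates 4 to 6. The diets did not overlap, though the gap between the lowest control and the highest sugar-diet library was smaller than the spread within either diet. The gene fell by 25.7% (log2 fold change -0.43, SE 0.095, edgeR adjusted p = 0.0278).

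*Prps*, which encodes phosphoribosyl pyrophosphate synthetase and so supplies salvage and pyrimidine synthesis as well, lies on chromosome 3L from 9683579 to 9696700 (BDGP6, minus strand). It was at 134, 139 and 134 CPM in control replicates 1 to 3 and at 107, 105 and 123 CPM in sugar-diet replicates 4 to 6. The sugar-diet libraries were all lower, with replicate 6 closest to the controls. *Prps* fell by 17.6% (log2 fold change -0.28, SE 0.085, edgeR adjusted p = 0.0752). It also passed the equivalence test (q = 0.00523), so the fall of *Prps* was both past the threshold and within 1.5-fold.

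The calls of *Gart* and *Prat2* were made with any one library left out, while those of *CG11089* and *Prps* were not. Without one library in turn, *Gart* ranged from -0.70 to -0.52 and *Prat2* from -0.60 to -0.47 on the log2 scale, and their largest edgeR adjusted p was 0.0571 for both, without SD + OSMI replicate 6. *CG11089* was no longer called without replicate 2, 3, 5 or 6, with adjusted p of 0.116, 0.119, 0.145 and 0.150. *Prps* was called only with all libraries and without SD + OSMI replicate 4 (adjusted p = 0.0804), and its adjusted p was 0.114 to 0.303 without each of the others. Without replicates 1, 2 and 3 in turn, 3, 2 and 2 of the 10 genes were lower, against 1.85%, 0.645% and 0.467% of all genes. Without replicates 4, 5 and 6 in turn, 6, 2 and 2 of the 10 were lower, against 6.81%, 0.557% and 0.289% of all genes. The 6 without replicate 4 included *Pfas* and *AdSL*.

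**Figure D2:**
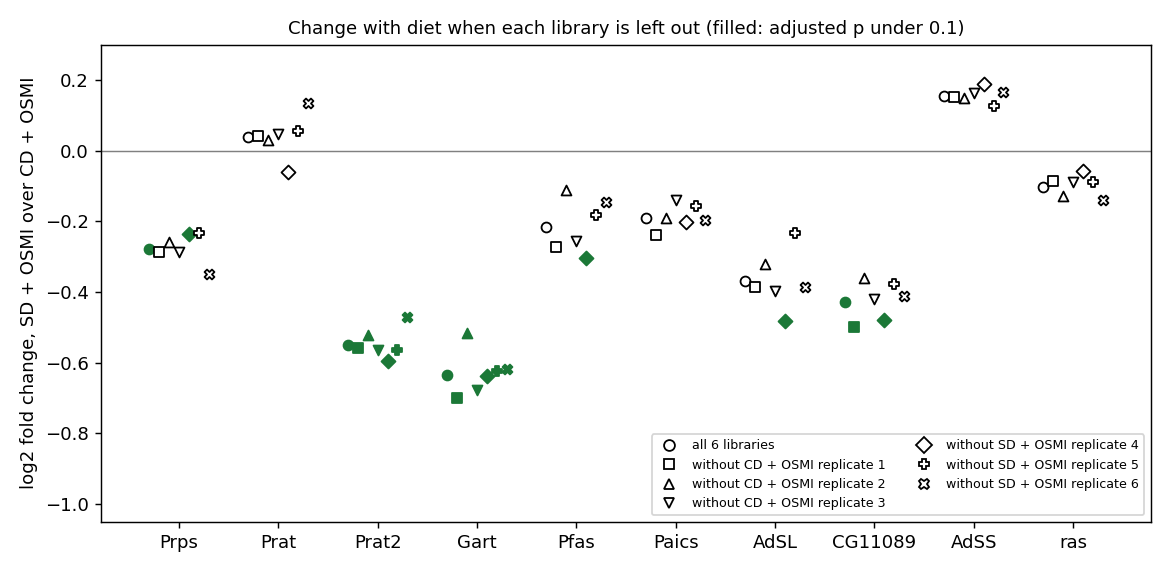
Log2 fold change (SD + OSMI over CD + OSMI) of each gene with all 6 libraries and with each library left out in turn. Filled symbols have an adjusted p under 0.1. *Gart* (-0.70 to -0.52) and *Prat2* (-0.60 to -0.47) stay filled in each fit, and *Prat* changes sign without SD + OSMI replicate 4 (-0.061).

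The remaining genes between the first step and IMP had negative log2 fold changes that did not pass the threshold. *Pfas* encodes the synthetase of formylglycinamidine ribonucleotide and lies on chromosome 2L from 6041181 to 6046050. It was at 222 ± 26.7 CPM on the control diet and 192 ± 23.5 CPM on the sugar diet (n = 3 each), with overlapping diets (log2 fold change -0.21, SE 0.11, edgeR adjusted p = 0.262). *Paics*, whose product adds a carboxyl group and then aspartate to the growing ring, lies on chromosome X from 12757036 to 12760617. It was at 104 ± 7.31 CPM and 91.3 ± 3.61 CPM, without overlap (log2 fold change -0.19, SE 0.084, edgeR adjusted p = 0.206). *AdSL* encodes adenylosuccinate lyase, which acts both on the way to IMP and in the AMP branch, and lies on chromosome 3R from 17018780 to 17021120. It was at 32.0, 35.0 and 31.5 CPM in control replicates 1 to 3 and at 29.7, 20.5 and 26.0 CPM in sugar-diet replicates 4 to 6, again without overlap but with a wide spread on the sugar diet (log2 fold change -0.37, SE 0.13, edgeR adjusted p = 0.123). *AdSL* was the only one of the 10 genes that was neither called nor placed within 1.5-fold (equivalence q = 0.164), so a change of that size was neither shown nor bounded for it.

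The genes that open the branches beyond IMP did not pass the test. *AdSS*, adenylosuccinate synthetase on chromosome 3R from 20824667 to 20830580, was at 90.4, 89.7 and 91.7 CPM in control replicates 1 to 3 and at 97.9, 105 and 99.5 CPM in sugar-diet replicates 4 to 6. All its sugar-diet libraries were above all control libraries, but the difference was small and did not pass (log2 fold change 0.15, SE 0.079, edgeR adjusted p = 0.279). *ras*, the IMP dehydrogenase gene on chromosome X from 10744502 to 10749097, was at 68.8 ± 2.32 CPM and 64.1 ± 3.21 CPM, with overlapping diets (log2 fold change -0.10, SE 0.083, edgeR adjusted p = 0.523). *bur*, which encodes GMP synthetase, the last enzyme of the GMP branch, was at 116 ± 4.44 CPM and 117 ± 5.97 CPM (log2 fold change 0.021, SE 0.081, edgeR adjusted p = 0.918). *AdSS* and *ras* both lay within 1.5-fold by the equivalence test (q = 2.76e-05 and 4.13e-05). Whether the branch genes and the genes before IMP differ in their response was not tested.

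**Figure D3:**
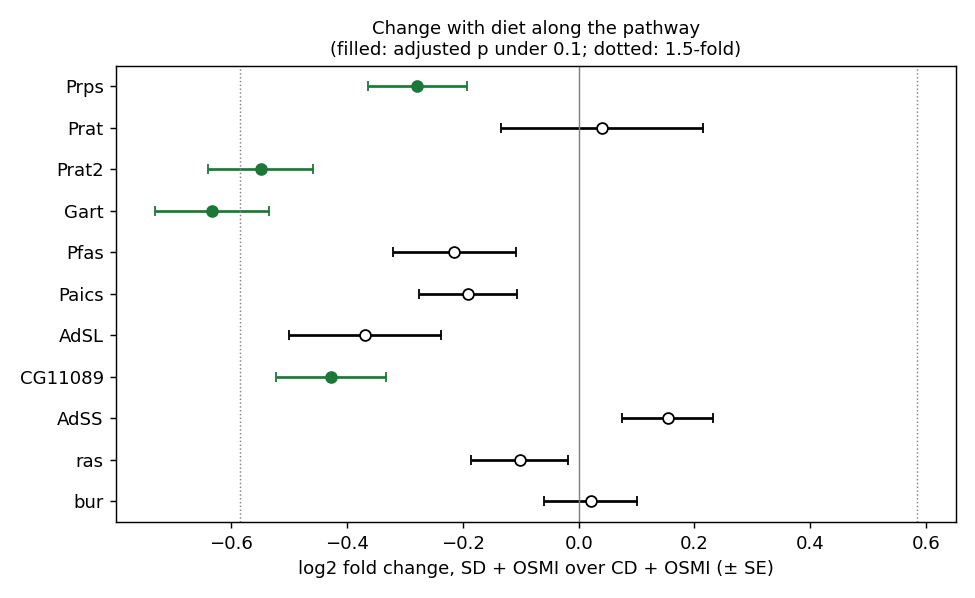
Log2 fold change (SD + OSMI over CD + OSMI) ± SE of the 10 genes in pathway order and of *bur*, with filled points for an adjusted p under 0.1 and dotted lines at 1.5-fold. The lowest points are *Gart* (-0.63) and *Prat2* (-0.55), *Prat* sits beside *Prat2* at 0.040, and *AdSS*, at 0.15, is the highest.

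Counted over the pathway, 8 of the 10 genes had a negative log2 fold change, a sign that 50.4% of all tested genes shared. In 6 genes every sugar-diet library was below every control library, as in 10.2% of all tested genes, and in 1 gene, *AdSS*, every sugar-diet library was above, as in 14.5%. The diets overlapped in *Prat*, *Pfas* and *ras*. At an unadjusted p under 0.05, 6 genes were lower, namely *Paics* and *AdSL* beside the 4 that were called, against 6.85% of all tested genes. The equivalence test placed *Prps*, *Prat*, *Pfas*, *Paics*, *AdSS* and *ras*, 6 of the 10, within 1.5-fold, against 47.1% of all tested genes. With a limit of 2-fold it placed all 10 inside, against 69.4%. The 10 genes lie on 4 chromosome arms or chromosomes (2 on 2L, 2 on 3L, 4 on 3R and 2 on X).

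Markers of other tissues moved with diet in the same libraries, where 6.91% of all tested genes were called higher and 2.18% lower. The summed level of 36 testis and sperm genes was 1330 to 2007 CPM in control libraries and 2415 to 3992 CPM in sugar-diet libraries, and 19 of the 34 tested were higher and 0 lower. For 30 genes of the male accessory gland and ejaculatory duct the sums were 242 to 302 CPM and 339 to 573 CPM, with 15 of 25 tested genes higher and 0 lower. The sum of 22 fat body genes was 10139 to 12447 CPM on the control diet and 6901 to 8627 CPM on the sugar diet, with 11 of 20 tested genes lower and 1 higher. *apolpp* alone was at 7726, 9202 and 7644 CPM in control and at 7136, 5803 and 5826 CPM in sugar-diet libraries. It made up most of the fat body sum, also where that sum is a covariate below, and the top place of CD + OSMI replicate 2 in the sum rests on this gene. None of these 3 lists had a gene at 0 in every library. Of 11 pan-neuronal genes, 0 passed the test, and all 11 had a negative log2 fold change, with a median of -0.20. Of 17 photoreceptor genes, 0 passed and 15 had a negative value (median -0.095), and of 10 glial genes 0 passed and 7 had a negative value (median -0.072). Over the 10 purine genes the sum was 899, 1006 and 934 CPM in CD + OSMI replicates 1 to 3 and 829, 765 and 776 CPM in SD + OSMI replicates 4 to 6. CD + OSMI replicate 2, with the lowest testis sum and the highest fat body sum of all libraries, had the highest value on its diet for 6 of the 10 genes, *Gart*, *Prat2*, *CG11089* and *Prps* included. SD + OSMI replicate 4, with the lowest testis sum and the highest fat body sum on the sugar diet, had the highest value on its diet for 7 of the 10. These libraries also had the highest pan-neuronal sums (16281 and 15391 CPM) and photoreceptor sums (37699 and 32762 CPM) on their diets. The share of all tested genes that were highest in them was not computed, and a link with any marker sum was not tested.

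The testis and fat body sums did not overlap between diets, while the pan-neuronal and photoreceptor sums did. A fit with the testis or the fat body sum as a covariate thus separates that sum from diet only by the differences within each diet. With the testis sum as a covariate 0 of the 10 genes were called, *Gart* at a log2 fold change of -0.35 (edgeR adjusted p = 0.652) and *Prat2* at -0.40 (adjusted p = 0.598), in a fit that called 0.143% of all genes lower. With the fat body sum as a covariate, a fit added after the data were seen, 0 of the 10 were called, *Gart* at -0.29 (adjusted p = 0.780) and *Prat2* at -0.34 (adjusted p = 0.726), and 0.26% of all genes were lower. *CG11089* was at -0.12 and 0.044 in these fits and *Prps* at -0.25 and -0.28. Diet and the makeup of the recovered mRNA cannot be told apart with these libraries.

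Between genes, levels were compared as CPM per kilobase of merged exons, averaged over the 6 libraries. *Prps* was highest at 52.3 ± 6.16, followed by *AdSS* at 49.1 ± 3.12, *Pfas* at 46.7 ± 6.35, *Paics* at 38.3 ± 3.43, *CG11089* at 37.7 ± 6.85 and *Prat2* at 34.6 ± 7.41. Below these came *ras* at 23.2 ± 1.25, *Gart* at 16.4 ± 4.25, *AdSL* at 12.4 ± 2.19 and *Prat* at 4.78 ± 0.456. The levels thus covered about one order of magnitude, with the paralogs of the first enzyme far apart. Each of the 9 neighbouring pairs was compared by a two-sided exact permutation test (sign flips over 6 libraries, smallest possible p 0.0313, Benjamini-Hochberg over the 9 pairs). The pairs and their direction were set by the means of these same libraries, so the p-values only describe how steady each order was. The upper gene was higher in 6 of 6 libraries for *Pfas* over *Paics*, *Prat2* over *ras*, *ras* over *Gart*, *Gart* over *AdSL* and *AdSL* over *Prat*, each at the smallest p and an adjusted p of 0.0563. No pair had an adjusted p under 0.05, and these 5 passed the limit of 0.1, which was set for this comparison after the values were seen. The other 4 pairs, *Prps* and *AdSS*, *AdSS* and *Pfas*, *Paics* and *CG11089*, and *CG11089* and *Prat2*, had adjusted p of 0.141 to 0.594, so their order did not exceed the spread over the 6 libraries. That spread takes in the diet difference. *Prps* was above *AdSS* in CD + OSMI replicates 1 to 3 (56.6, 58.8 and 56.7 against 46.3, 46.0 and 47.0 CPM per kilobase). On the sugar diet it was below in replicates 4 and 5 (45.5 and 44.4 against 50.2 and 53.8) and above in replicate 6 (52.1 against 51.0).

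The order at the top differed between the diets. On CD + OSMI *Prps* was highest at 57.4 ± 1.28 CPM per kilobase and *AdSS* held place 3 at 46.5 ± 0.524, while on SD + OSMI *AdSS* was highest at 51.7 ± 1.92 and *Prps* next at 47.3 ± 4.15 (n = 3 each). *Prat2* held place 5 on the control diet at 41.2 ± 1.31 CPM per kilobase and place 6 on the sugar diet at 28.1 ± 2.80, and *ras*, *Gart*, *AdSL* and *Prat* kept places 7 to 10 on both. The order also depended on the length used. Per kilobase of coding sequence *Paics* moved up to place 2 and *AdSL* lay above *Gart*. With the longest transcript as the length, *Prat2* and *CG11089* exchanged places.

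**Figure D4:**
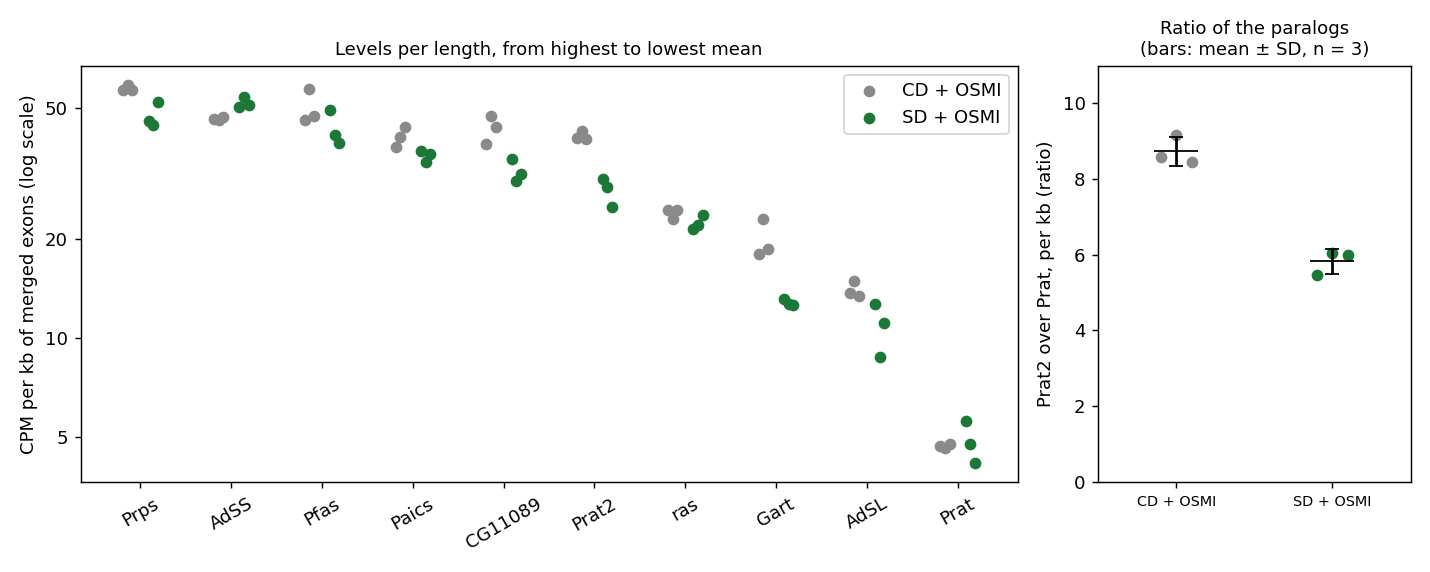
Left, CPM per kilobase of merged exons (log axis) of each gene in each library, from the highest to the lowest mean over 6 libraries, grey for CD + OSMI and green for SD + OSMI. Right, the ratio of *Prat2* to *Prat* per kilobase in each library on a linear axis from 0, with the mean ± standard deviation of 3 libraries, which was 8.72 on CD + OSMI and 5.83 on SD + OSMI.

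For 7 of the 10 genes an exon overlaps an exon of another gene, and whether counting used strand is not given in the sources used here. The partner with the most counts was *stx*, which shares 160 exon bases with *ras* on the opposite strand and had 4518 to 5680 counts per library, more than *ras*. Its log2 fold change was -0.028 (edgeR adjusted p = 0.886). *Taf7*, opposite the end of *Prat* over 124 exon bases, had 133 to 171 counts per library, about as many as *Prat* with 117 to 186. Of the exon-overlapping partners that were tested, none was called.

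Among genes outside the pathway, likeness to *Gart* was measured as the root mean square distance of log2 CPM over the 6 libraries, each gene centred on its mean. The closest of 8310 genes with at least 5 CPM on average were *nAChRbeta1* (0.0532), *Got2* (0.0782) and *CG43850* (0.0800), against a median distance of 0.336. *nAChRbeta1*, a subunit of the nicotinic acetylcholine receptor, was at 94.3, 126 and 104 CPM in control and 73.5, 74.4 and 73.2 CPM in sugar-diet libraries. *Got2*, a glutamate oxaloacetate transaminase gene, was at 395, 494 and 462 CPM and at 313, 305 and 311 CPM. Within the pathway *Prat2* ranked 21st (0.115) and *CG11089* 33rd (0.123) in distance from *Gart* among all tested genes, while *AdSS* was the farthest (0.407). The distance takes in the diet difference together with the spread within each diet.

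Genes that supply the pathway with carbon and ribose included further genes that fell, where 2.18% of all tested genes were called lower and 6.91% higher. Of 9 tested genes of one-carbon supply 3 were lower and 0 higher, with a median log2 fold change of -0.34. *CG8665*, whose human counterpart removes the formyl group from folate, fell from 35.1 ± 3.71 to 20.1 ± 2.17 CPM (log2 fold change -0.80, edgeR adjusted p = 0.00478). *Shmt*, serine hydroxymethyltransferase, which moves a carbon from serine to folate, fell from 73.2 ± 3.78 to 52.4 ± 3.76 CPM (-0.48, adjusted p = 0.0126). *CG3999*, a glycine decarboxylase gene, was at 7.39 ± 0.678 and 4.55 ± 0.751 CPM (-0.70, adjusted p = 0.0874). The members that fell include both a gene whose product uses up formyl folate and one whose product loads carbon onto folate. Of 7 tested genes of the pentose phosphate pathway 2 were lower and 0 higher, with a median of -0.15. *Taldo*, transaldolase, fell from 176 ± 14.3 to 127 ± 3.43 CPM (-0.48, adjusted p = 0.0102) and *Pgd*, phosphogluconate dehydrogenase, from 69.4 ± 2.43 to 54.6 ± 3.13 CPM (-0.35, adjusted p = 0.0427). *CG8665*, *Shmt* and *Taldo* were called without any one library. *Pgd* was not called without replicate 2, 3 or 6, and with a library left out *CG3999* was called only without replicate 4.

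Genes that reuse or break down purines included some that rose, where 6.91% of all tested genes were called higher and 2.18% lower. Of 9 tested salvage genes 2 were higher and 0 lower (median log2 fold change 0.23), namely *Adgf-B*, a growth factor related to adenosine deaminase, from 3.93 ± 0.508 to 7.18 ± 1.60 CPM (0.87, edgeR adjusted p = 0.0617), and *Adk1*, an adenosine kinase gene, from 10.6 ± 2.64 to 17.6 ± 4.56 CPM (0.73, adjusted p = 0.0852). Of 9 tested breakdown genes 2 were higher and 1 lower (median 0.50). *veil*, a nucleotidase gene, was at 10.4 ± 2.72 and 21.2 ± 7.27 CPM (1.03, adjusted p = 0.0621), and *NT5E-2*, another nucleotidase gene, was at 16.2 ± 3.47 and 25.0 ± 5.70 CPM (0.62, adjusted p = 0.0770). *CG16758*, a purine nucleoside phosphorylase gene, fell from 167 ± 8.03 to 127 ± 6.40 CPM (-0.40, adjusted p = 0.0195). The 4 genes that rose were each highest in SD + OSMI replicate 5, the library with the highest testis sum, and none of them was called without replicate 2, 3, 5 or 6. *Adk1* also lost its call without replicate 1, with limma-voom, with a minimum of 50 counts, and with scales that leave out the mitochondrial or the 20 most abundant genes, and *NT5E-2* with a minimum of 50 counts. None of the 4 was past an adjusted p of 0.05. The part of testis RNA in their rise was not tested gene by gene. *CG16758* lost its call only without SD + OSMI replicate 6 among the fits that leave out a library.

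**Figure D5:**
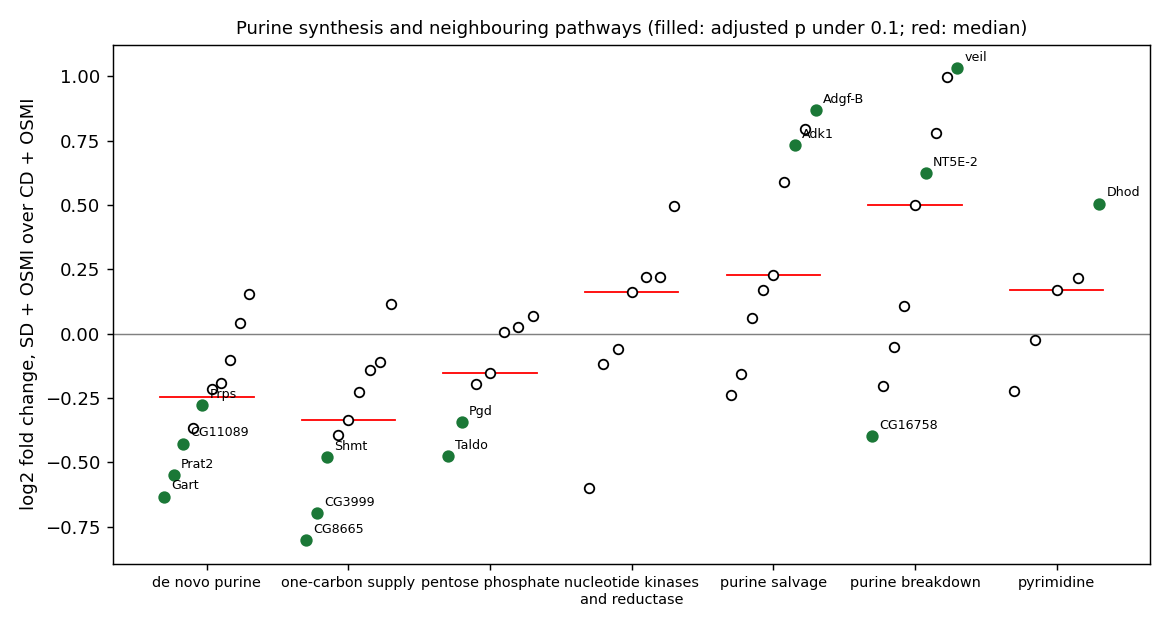
Log2 fold change (SD + OSMI over CD + OSMI) of each tested gene in de novo purine synthesis and in neighbouring pathways. Filled points have an adjusted p under 0.1 and are named, and red lines are medians, which run from -0.34 for one-carbon supply and -0.25 for purine synthesis to 0.50 for purine breakdown.

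The remaining lists stand beside the same shares of all tested genes, 6.91% called higher and 2.18% lower. Of 7 tested genes for nucleotide kinases, AMP deaminase and ribonucleotide reductase, 0 were called in either direction (median log2 fold change 0.16). At an unadjusted p under 0.05 only *Ak3* and *awd* stood among them, both with positive values, against 14.5% of all tested genes in that direction. DESeq2 called *Ak3* while limma-voom called none. Of 5 tested genes of pyrimidine synthesis 1 was higher, *Dhod*, dihydroorotate dehydrogenase, from 16.5 ± 0.754 to 23.4 ± 2.60 CPM (0.51, edgeR adjusted p = 0.0510), a call that was lost without replicate 2, 3, 5 or 6. *Pu*, GTP cyclohydrolase, which draws on GTP for pteridines, was at 101 ± 4.08 and 84.1 ± 9.83 CPM (-0.26, adjusted p = 0.125). Among 8 growth regulators that are known to act on nucleotide synthesis or on the response to sugar, 1 was higher, the zinc finger gene *sug*, from 75.7 ± 8.73 to 123 ± 11.1 CPM (0.71, adjusted p = 0.00272), which was called without any one library. *Myc*, a regulator of growth, was at 171 ± 4.69 and 196 ± 18.4 CPM (0.19, adjusted p = 0.216). With the testis sum or the fat body sum as a covariate, 0 genes of these neighbouring lists were called.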

How the data were processed

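Heads of male flies were lysed, tagged ribosomes were pulled down with an anti-Flag antibody, and libraries were made from the bound RNA after ribosomal RNA was depleted. Per the paper's methods and the submitters' processing notes, the authors discarded low-quality reads, aligned with STAR to BDGP6 (dm6), used SAMtools 1.4 and counted per gene with HTSeq. The deposited values are raw counts of 17489 genes, with no normalization. The strand setting and annotation release are not given in the sources used here. The authors' own test of diet used DESeq2 1.18.0.

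Symbols, positions and exon lengths came from the Ensembl annotation of BDGP6. Each of the 10 genes matched 1 identifier, and 274 genes lacked a symbol. Diets were tested with edgeR 4.0.16 in R 4.3.3 (TMM, robust quasi-likelihood fit, diet as the only term, at least 10 counts in at least 3 libraries, adjusted p under 0.1), limma 3.58.1 and DESeq2 1.42.0, followed by tables, exact tests and plots in Python 3.11.15 (scipy 1.17.1, pandas 2.3.3, matplotlib 3.10.9, numpy 2.4.6). The SE is the size of the log2 fold change over the square root of F. The edgeR script was tested on simulated data, where the share of false calls came out above the nominal level when each gene had its own dispersion. The common biological coefficient of variation was 0.150. For pairs of replicates, chi-square over its degrees of freedom was 10.6 to 33.1, far above sampling noise, so none was a repeat sequencing of another library. It cannot tell separate pools of heads from separate preparations of the same pool. The edgeR p-values for diet rest on the spread between these 3 replicates per diet, with each gene's spread drawn toward that of the other tested genes. Those for the order of levels use the spread over all 6 libraries. TMM factors were 0.956 to 1.04. The likeness measure used a pseudocount of 0.5 CPM.

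The members, lists and tests were chosen with earlier results of these data known. All 10 members are named, and from each neighbouring pathway list the called genes, at most 4 by smallest p, with *bur*. Cell type marker lists are given as sums and counts. *Pu*, *Myc*, *Ak3*, *awd* and the overlapping genes were named outside that rule, after their values were seen. Alternatives were DESeq2, limma-voom, other scale factors, no filter or at least 50 counts, an adjusted p under 0.05, scales without male reproductive, mitochondrial or the 20 most abundant genes, the marker sums as covariates, other lengths, a 2-fold limit and leaving out each library. Input libraries and flies without OSMI-1 were not analysed here.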

Additional observations from a re-analysis of the deposited data

How the results depend on the processing

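Of the 10 genes, the same 4 were lower with DESeq2, limma-voom, RLE and upper-quartile factors, at least 50 counts, and scales without male reproductive, mitochondrial or the 20 most abundant genes. The shares of all tested genes called lower in these fits were, in that order, 2.82%, 1.79%, 2.46%, 2.35%, 2.88%, 2.17%, 2.17% and 2.21%. An adjusted p under 0.05 left *Prat2*, *Gart* and *CG11089*, against 0.755% of all genes. With no filter *AdSL* was added (5 genes), against 2.18%. With the testis sum or the fat body sum as a covariate the count was 0, against 0.143% and 0.26% of all genes. Leaving out each library gave 2 to 6 lower genes, against 0.289% to 6.81% of all genes. None was higher in any of these fits. Values changed sign for *Pfas* (0.19 with the testis sum, 0.32 with the fat body sum), *AdSL* (0.052 and 0.15), and, with the fat body sum, *Paics* (0.034) and *CG11089* (0.044). Leaving out each library moved *Prat* between -0.061 (without SD + OSMI replicate 4) and 0.13. The cause was not tested. With a 2-fold limit of equivalence 10 genes lay inside. The *Prat2* to *Prat* log2 difference was -0.61 to -0.54 without each library, where the smallest possible exact p is 0.2. The count of neighbouring pairs past 0.1 was 4 or 5 with other lengths, but the pairs themselves were not all the same. By coding length *Paics* lay above *Pfas* and *AdSL* above *Gart*, the reverse of the order by merged exons. No paired analysis was made, since the labels do not say whether libraries of the diets were prepared in pairs. Counts of *Prat* (117 to 186 per library) gave the widest SE of the 10 genes.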
